A study of Homo sapiens with 10 samples.

Results

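Glycolysis was examined through 10 genes that had been chosen by name, SLC2A1, HK1, HK2, GPI, PFKL, ALDOA, TPI1, GAPDH, ENO1 and LDHA, out of 20535 genes listed for K562, a human erythroleukemia cell line. K562 cells carried inducible dCas9 fusions, delivered by lentivirus, switched on with doxycycline and sorted by their fluorescent reporters, together with sgRNAs. The control was the nontargeting sgGal4. Its labels name no dCas9 fusion, so sgRNA and fusion cannot be told apart in the comparisons with it. The study's legend for its RNA-seq plot names nontransduced cells as the baseline, while no library here is labelled so. Another 4 groups carried all 4 sgRNAs against HS2, an enhancer in the locus control region of the β-globin genes. These groups, called sgHS2 here, bore dCas9 fused to the KRAB repressor domain (K), dCas9 fused to the histone demethylase LSD1 (L), dCas9-LSD1 with KRAB recruited to the sgRNA through MCP (enCRISPRi-LK), or dCas9-KRAB with LSD1 recruited in the same way (enCRISPRi-KL). RNA-seq was performed on 2 libraries of each of the 5 groups, 10 in all, and levels are given in TPM, a gene's share of all transcripts after correction for transcript length, scaled to a fixed total. The number of reads cannot be read from TPM, so the depth behind each value is unknown. The study counts the libraries of a group as experiments, but neither it nor the labels say whether these were separate transductions or cultures, and the p-values measure only the spread between these libraries.

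Glycolysis splits glucose into pyruvate and yields ATP and NADH. Glucose enters through transporters such as GLUT1, encoded by SLC2A1, and is committed and cleaved by the hexokinases (HK1, HK2), glucose phosphate isomerase (GPI), phosphofructokinase (PFKL) and aldolase (ALDOA), after which triosephosphate isomerase (TPI1) interconverts the triose phosphates and ends the preparatory phase. GAPDH and enolase (ENO1) act in the phase that returns energy, and lactate dehydrogenase (LDHA) turns pyruvate into lactate. Dividing leukemia cells use the pathway heavily, many of its genes are induced by hypoxia through HIF1, and GAPDH is a common reference gene, which was also its role in the qRT-PCR of the study.

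The promoters of 2 aldolase genes and of LDHA are shown because the aldolases were the enzymes whose levels differed between groups below, and LDHA is a textbook hypoxia-induced gene that did not pass the test. Each line holds the 250 bases before a RefSeq start in a table on build GRCh38.p14, located on GRCh37 by exact match, at chr16:30076831-30077080 on the plus strand for ALDOA, chr17:26903914-26904163 on the minus strand for ALDOC and chr11:18415860-18416109 on the plus strand for LDHA. Capitals mark ACGTG, a form of the core letters of the hypoxia response element, on either strand (CACGT on the other). Other forms were not searched. CACGTG holds both strands' letters in overlap and was counted as 1 match.
ALDOA: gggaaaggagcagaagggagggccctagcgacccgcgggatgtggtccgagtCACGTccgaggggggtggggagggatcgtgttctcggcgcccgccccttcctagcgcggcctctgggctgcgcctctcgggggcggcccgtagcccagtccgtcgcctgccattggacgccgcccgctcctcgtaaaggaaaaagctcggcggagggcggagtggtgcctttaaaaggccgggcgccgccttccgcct
ALDOC: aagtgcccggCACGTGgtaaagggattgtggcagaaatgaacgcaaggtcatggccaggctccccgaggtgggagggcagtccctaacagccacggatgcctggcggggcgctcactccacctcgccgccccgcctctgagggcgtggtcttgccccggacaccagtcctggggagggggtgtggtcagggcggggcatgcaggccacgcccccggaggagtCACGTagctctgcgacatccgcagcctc
LDHA: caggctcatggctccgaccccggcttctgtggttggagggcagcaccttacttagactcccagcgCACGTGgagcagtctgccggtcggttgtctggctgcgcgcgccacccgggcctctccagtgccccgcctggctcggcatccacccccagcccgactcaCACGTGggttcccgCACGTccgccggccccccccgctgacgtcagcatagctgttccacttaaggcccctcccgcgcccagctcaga
ALDOA had 1 match, 198 bases before the start. ALDOC had 2, at 240 and 28 bases, and LDHA had 3, at 185, 87 and 73 bases. Of the 10 members, 5 had the letters in the window nearest to their annotated start (HK2, GPI, ALDOA, GAPDH and LDHA), against 18.5% of 35114 windows of the same length. For GAPDH that window ended 747 bases from the start of the canonical transcript, for HK1 217 and for GPI 204, and for the other members at it. A match describes the letters only.

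Before the members are compared, the labels were read against the effectors. KDM1A, the gene of LSD1, stood at 105 and 84.2 TPM where the label was dCas9-LSD1 and between 25.2 and 33.5 TPM in all others. ZNF10, from which the KRAB domain is taken, stood at 128 and 136 TPM under that same label, at 36.8 and 31.5 TPM in those labelled enCRISPRi-LK, 365 and 360 TPM in those labelled enCRISPRi-KL, and 1.18 and 3.80 TPM in those labelled dCas9-KRAB. The dCas9-KRAB libraries were thus low and the dCas9-LSD1 libraries high for ZNF10, which their labels would place the other way round. KDM1A lay within the range of sgGal4 in enCRISPRi-LK (27.4 and 30.6 TPM) and enCRISPRi-KL (26.8 and 26.6 TPM), which also include LSD1. Whether the transgenes were counted under these symbols was not tested. Groups are therefore named below by their labels alone. HBE1, a target of HS2, was at 1376 and 1620 TPM in sgGal4 and between 361 and 1019 TPM in the 8 sgHS2 libraries. HBG1 and HBG2, also targets, overlapped between sgGal4 and sgHS2 libraries. HBG1 was at 118 and 99.4 TPM in sgGal4 and between 40.6 and 132 TPM in sgHS2, with both dCas9-KRAB libraries above sgGal4. HBG2 was at 941 and 673 TPM in sgGal4 and between 222 and 698 TPM in sgHS2. Of 15 erythroid markers of K562 cells, 14 reached 1 TPM in every library, whereas 2 of 9 markers of other blood cells and 4 of 8 of cells outside blood did so, and CD3E, MS4A1, MPO, ELANE and ALB were at 0. The mitochondrially encoded genes took 53.6% of listed TPM in sgGal4 replicate 1 and between 39.9% and 46.6% in the other 9 libraries.

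Glycolysis transcripts were abundant in every group. GAPDH (mean 1651 TPM over the 10 libraries) and ALDOA (1131 TPM) stood highest, followed by LDHA (681 TPM), ENO1 (433 TPM), GPI (194 TPM), HK1 (193 TPM), SLC2A1 (60.8 TPM), PFKL (21.4 TPM) and HK2 (11.3 TPM). The ranges over libraries overlapped between GAPDH and ALDOA and between GPI and HK1, while those of all other neighbours in this order did not. TPI1 was listed at 0 TPM in all 10 libraries, as were 6069 of the 20535 listed genes. In the GENCODE canonical transcript of TPI1, on chromosome 12 from 6976283 to 6980112 of GRCh37, 23.7% of stretches of 75 bases also occurred elsewhere in the genome, and only reads with a single location had been kept. The remaining stretches were unique, so a listing at 0 was not read as absence of the transcript. The other 9 members were tested on log2(TPM + 1) with limma, in one fit of 10127 genes that averaged 1 TPM or more.

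Across the members, 1 gene passed the test and 8 did not. ALDOA was lower in enCRISPRi-KL than in sgGal4 and lower in the mean of the 4 sgHS2 groups, and no member was called in the other 6 comparisons. The share of all tested genes called was 1.82% for the F test over the 5 groups, 1.62% for dCas9-KRAB, 0.869% for dCas9-LSD1, 2.00% for enCRISPRi-LK and 1.36% for enCRISPRi-KL against sgGal4, 3.26% for the mean of the 4 sgHS2 groups, 0.0889% for dual (LK and KL) against single effectors (K and L) and 0.385% for enCRISPRi-LK against enCRISPRi-KL. A call of 1 gene among 9 describes that gene and not the list. At an unadjusted p under 0.05, limma counted 0 of 9 members for dCas9-KRAB (15.6% of all tested genes), 2 for dCas9-LSD1 (12.8%), 0 for enCRISPRi-LK (14.2%), 1 for enCRISPRi-KL (14.7%), 1 for the mean of the 4 sgHS2 groups (17.1%), 1 for dual against single effectors (7.45%) and 1 for enCRISPRi-LK against enCRISPRi-KL (9.84%). The comparisons with sgGal4 share its 2 libraries and are not independent of each other.

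**Figure D1:**
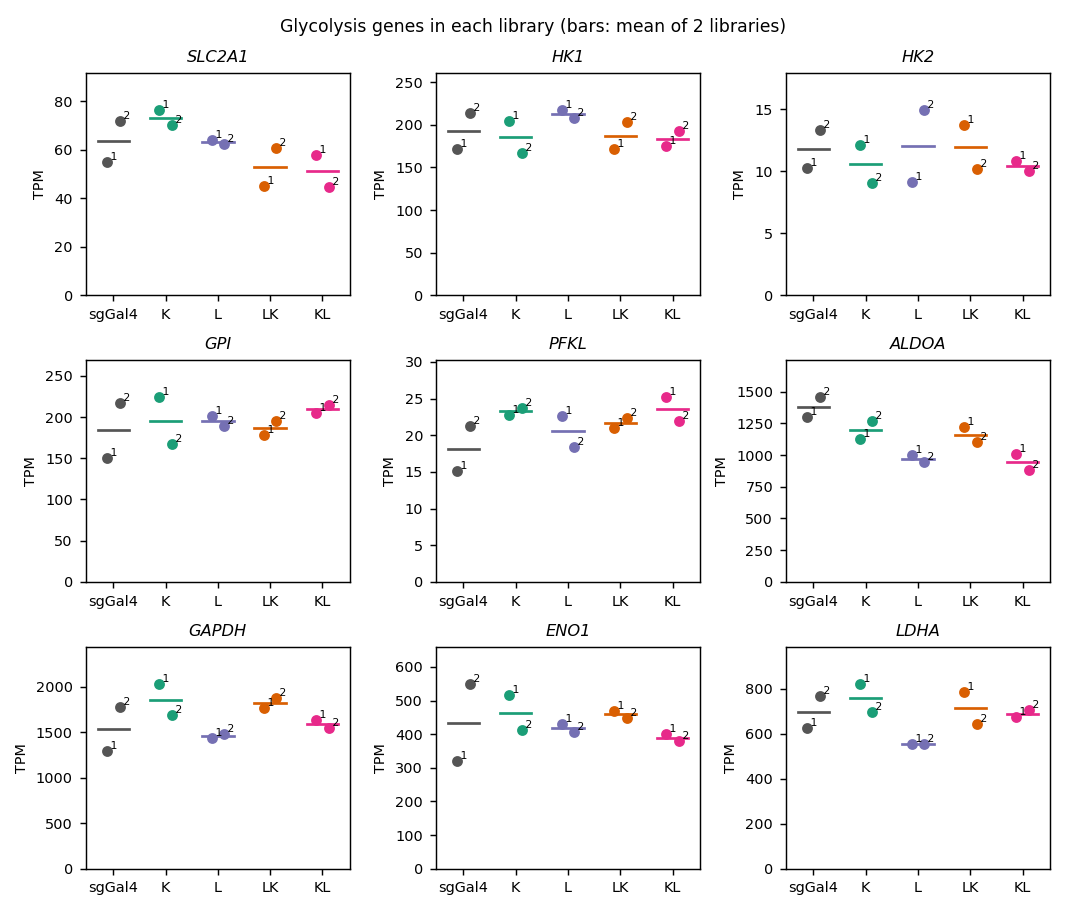
TPM (vertical axes, from 0) of the 9 glycolysis genes above 0 in each library of the 5 groups, with points numbered by replicate and bars at the mean of 2 libraries. ALDOA is the panel in which both sgGal4 libraries, at 1304 and 1458 TPM, stand above the other 8, as for 5.29% of tested genes.

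For glucose entry, SLC2A1 was at 55.0 and 71.9 TPM in sgGal4, 76.4 and 70.1 in dCas9-KRAB, 64.2 and 62.3 in dCas9-LSD1, 44.9 and 60.9 in enCRISPRi-LK, and 57.7 and 44.6 in enCRISPRi-KL. The 4 dual-effector libraries all lay below the 4 single-effector libraries, while sgGal4 overlapped both. How many of all tested genes shared that order was not counted. The difference between dual and single effectors was -0.39 ± 0.154 on the log2 scale (SE), with an unadjusted p of 0.0228 and an adjusted p of 0.611, and did not pass.

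The kinases and the isomerase of the first steps showed no called difference. HK1, the main hexokinase here, lay between 167 and 217 TPM, with a mean of 193 TPM in sgGal4 and 192 TPM in the sgHS2 libraries. HK2, the isoform more often induced in tumors, lay between 9.03 and 14.9 TPM and took 4.02% to 7.39% of the summed level of HK1 and HK2. GPI lay between 150.0 and 224 TPM, lowest in sgGal4 replicate 1 and highest in dCas9-KRAB replicate 1. PFKL, the liver-type phosphofructokinase, was at 15.1 and 21.2 TPM in sgGal4 and between 18.4 and 25.2 TPM in the sgHS2 libraries, a difference of 0.29 ± 0.204 on the log2 scale (adjusted p = 0.514). It was 0.0599 without sgGal4 replicate 1 and 0.522 without sgGal4 replicate 2.

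ALDOA encodes the aldolase that cleaves fructose 1,6-bisphosphate and lies on chromosome 16 from 30075485 to 30081778 of GRCh37, plus strand. It was at 1304 and 1458 TPM in sgGal4, 1127 and 1267 in dCas9-KRAB, 999 and 944 in dCas9-LSD1, 1219 and 1103 in enCRISPRi-LK, and 1009 and 880.02 in enCRISPRi-KL. Both sgGal4 libraries stood above all 8 sgHS2 libraries, an order that 5.29% of tested genes shared and that no other member had. Against sgGal4, enCRISPRi-KL was lower by -0.55 ± 0.117 on the log2 scale (SE, adjusted p = 0.0316, 1.46-fold lower), in a comparison that called 0.731% of genes lower. The mean of the 4 sgHS2 groups was lower by -0.38 ± 0.0928 (adjusted p = 0.0419), with 1.48% of genes called lower. The dCas9-LSD1 libraries gave -0.50 ± 0.117 (adjusted p = 0.0683), enCRISPRi-LK -0.25 (adjusted p = 0.354) and dCas9-KRAB -0.21 (adjusted p = 0.432), none of which passed. Between enCRISPRi-LK and enCRISPRi-KL the difference was 0.30 ± 0.117, with an adjusted p of 0.41.

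The ALDOA calls lay near the threshold. With 1 library left out the enCRISPRi-KL call held in 3 of 10 fits (without sgGal4 replicate 1 or either dCas9-KRAB library) and was lost without sgGal4 replicate 2 (adjusted p = 0.0778), either dCas9-LSD1 library (0.0526 in both), enCRISPRi-LK replicate 1 or 2 (0.0600 and 0.0556) and enCRISPRi-KL replicate 1 or 2 (0.0777 and 0.304). The call on the mean held in 1 of 10, without dCas9-KRAB replicate 2, and the other 9 gave adjusted p between 0.0520 and 0.171. In every one of these fits ALDOA stayed lower in the sgHS2 libraries, between -0.65 and -0.45 for enCRISPRi-KL and between -0.46 and -0.30 for the mean.

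**Figure D2:**
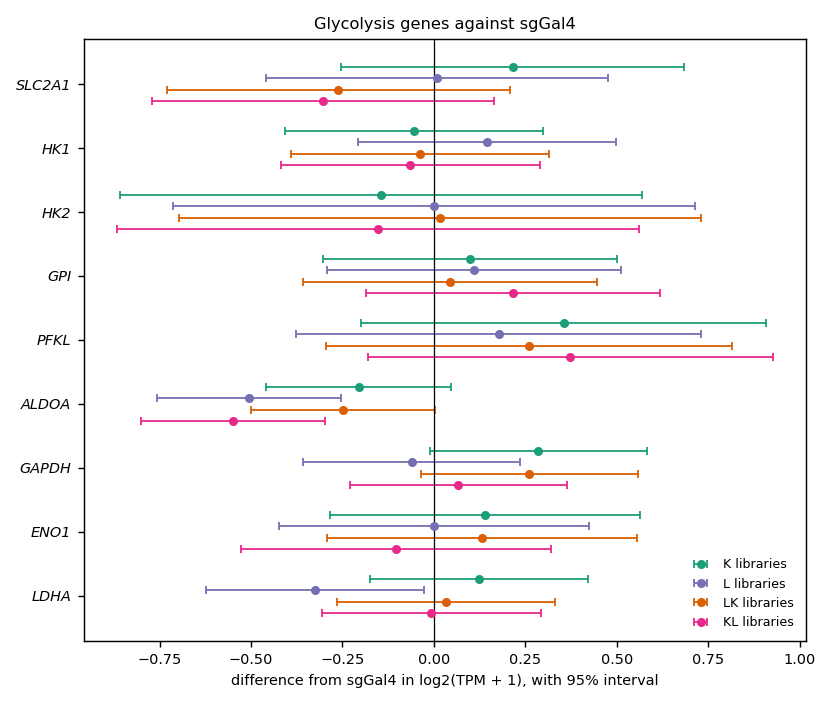
Difference of each sgHS2 group from sgGal4 in log2(TPM + 1) for the 9 tested glycolysis genes, with 95% intervals from limma (5 residual degrees of freedom, moderated). The points of ALDOA stand left of 0 in all 4 groups, farthest in enCRISPRi-KL (-0.55) and dCas9-LSD1 (-0.50). Its intervals cross 0 in dCas9-KRAB (-0.46 to 0.046) and enCRISPRi-LK (-0.50 to 0.0021). The intervals of the other genes cross 0 except for LDHA in dCas9-LSD1.

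In the payoff phase, ENO1, the main enolase, was at 319 and 550 TPM in sgGal4 and between 380 and 517 TPM in the sgHS2 libraries, so the 2 control libraries enclosed all the others. LDHA was at 624 and 768 TPM in sgGal4, 820 and 694 in dCas9-KRAB, 553 and 553 in dCas9-LSD1, 782 and 641 in enCRISPRi-LK, and 674 and 704 in enCRISPRi-KL. Both dCas9-LSD1 libraries were the lowest of the 10 for LDHA, an order whose share among all tested genes was not counted. Their difference from sgGal4 was -0.32 ± 0.139 on the log2 scale (unadjusted p = 0.0353, adjusted p = 0.343) and did not pass. It was -0.47 without sgGal4 replicate 1 and -0.18 without sgGal4 replicate 2. The 95% intervals of the 9 members together reached from -0.86 to 0.91 for dCas9-KRAB, -0.76 to 0.73 for dCas9-LSD1, -0.73 to 0.81 for enCRISPRi-LK and -0.87 to 0.93 for enCRISPRi-KL and the widest were those of HK2 and PFKL.

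GAPDH, on chromosome 12 from 6643678 to 6647540 of GRCh37, was followed library by library because reference genes set the scale of other assays. It stood at 1294 and 1777 TPM in sgGal4, 2029 and 1684 in dCas9-KRAB, 1430 and 1478 in dCas9-LSD1, 1765 and 1872 in enCRISPRi-LK, and 1629 and 1549 in enCRISPRi-KL. The highest library was 1.57-fold above the lowest, and these were dCas9-KRAB replicate 1 and sgGal4 replicate 1. Against sgGal4 the differences were 0.29 ± 0.138 for dCas9-KRAB (adjusted p = 0.340), 0.26 ± 0.138 for enCRISPRi-LK (adjusted p = 0.419), 0.07 for enCRISPRi-KL and -0.06 for dCas9-LSD1, on the log2 scale, and none passed. Without sgGal4 replicate 2, with the remaining sgGal4 library assumed to vary like the other groups, dCas9-KRAB (0.51, adjusted p = 0.0345) and enCRISPRi-LK (0.49, adjusted p = 0.0428) were called higher. Without sgGal4 replicate 1 these differences were 0.06 and 0.03, and the difference of the mean of the 4 sgHS2 groups moved from 0.14 to -0.09, so the direction of the mean turned with the control library left out.

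The spread of GAPDH over the 10 libraries was an SD of 0.195 in log2(TPM + 1) and a coefficient of variation of 13.4%. Pooled within groups the SD was 0.172, close to that over all libraries, but the groups were uneven. The 2 replicates differed by 0.457 in sgGal4 and 0.269 in dCas9-KRAB on the log2 scale. In dCas9-LSD1, enCRISPRi-LK and enCRISPRi-KL they differed by only 0.0469, 0.0854 and 0.0721. Of the 749 genes that averaged 100 TPM or more, 42.7% had an SD at or below that of GAPDH, which is a middle position. Among the members HK1 (0.146) and GPI (0.182) varied less, and SLC2A1 (0.260) varied most. Of 11 other reference genes that averaged 1 TPM or more, 6 varied less than GAPDH, and the SD of the 11 ran from 0.0902 for PPIA to 0.366 for GUSB, both named after their values were seen. ACTB, at 839 to 1283 TPM, and EEF1A1, at 965 to 1405 TPM, stood among the most abundant of these, and RPLP0 lay between 502 and 953 TPM. None of the 11 was called in the comparisons with sgGal4 by limma. For the mean of the 4 sgHS2 groups limma counted 4 of the 11 at an unadjusted p under 0.05, against 17.1% of all tested genes. HPRT1 and SDHA were the 2 whose sgGal4 libraries lay below all others, as for 6.53% of tested genes.

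The library with the least GAPDH, sgGal4 replicate 1, was also the one with the largest mitochondrial share, 53.6%. When the mitochondrial genes were left out and the rest scaled to a common total, the SD of GAPDH was 0.128, its coefficient of variation 8.93%, and 14.0% of the 749 genes had an SD at or below it. On that scale 2 of the 11 reference genes varied less than GAPDH. The ratio of the highest to the lowest library was 1.28, with dCas9-LSD1 replicate 1 now lowest. The difference between dCas9-KRAB and sgGal4 was 0.16 (adjusted p = 0.404) and that of enCRISPRi-LK 0.13 (adjusted p = 0.516).

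**Figure D3:**
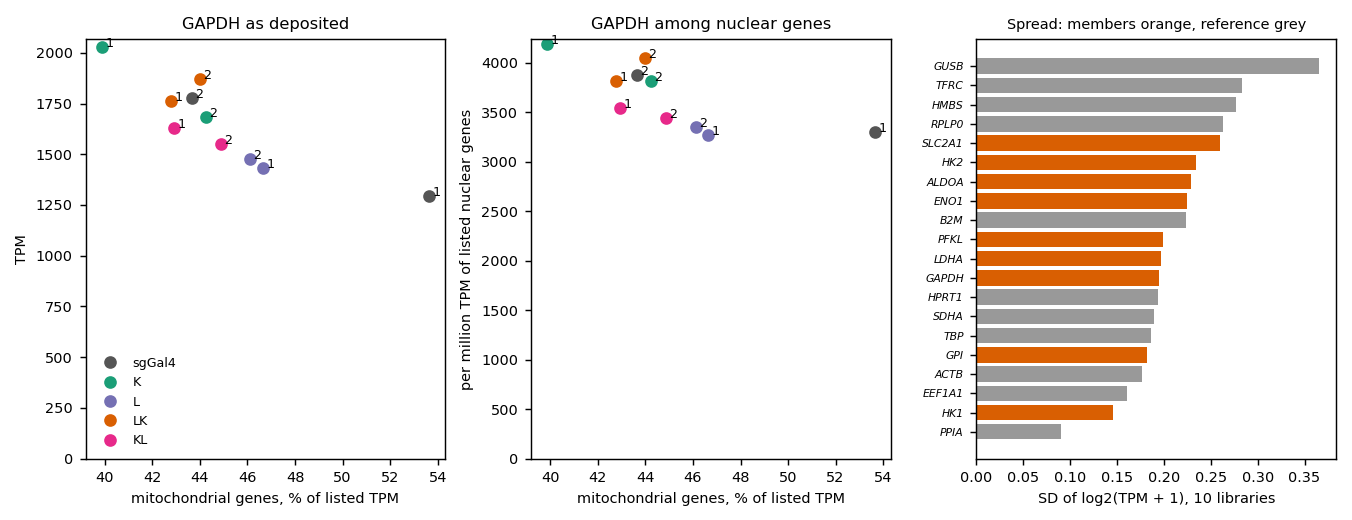
GAPDH in TPM (left) and scaled to a common total of the listed nuclear genes (middle) against the mitochondrial share of listed TPM in percent, 1 point per library numbered by replicate, and the SD of log2(TPM + 1) over 10 libraries (right) for members (orange) and reference genes (grey). In the left panel sgGal4 replicate 1 lies apart at 53.6% and 1294 TPM, and in the right panel GAPDH, at 0.195, lies in the middle of the list.

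The members did not move as a block. TPM is scaled to a fixed total, so genes are not free of each other. The listed genes summed to between 790470 TPM (dCas9-KRAB replicate 2) and 844414 TPM (sgGal4 replicate 1). Over the 10 libraries the Pearson correlation of log2(TPM + 1) with GAPDH was 0.81 for ENO1, 0.73 for LDHA, 0.60 for PFKL and 0.53 for GPI. It was between 0.15 and 0.34 for SLC2A1, HK1, HK2 and ALDOA. The mean of the 9 centred members was lowest in sgGal4 replicate 1 (-0.21) and highest in sgGal4 replicate 2 (0.21), so the 2 control libraries marked both ends. Among 6109 other genes that averaged 10 TPM or more, those most alike to GAPDH in pattern were SKP1 (0.954), CLTA (0.953), VCP (0.948), CFL1 (0.943) and TUBA1C (0.930). For the mean of the members they were SMARCC1 (0.974), TRMT1 (0.949), FAM53C (0.947), PTRF (0.937) and PRPS1 (0.928), out of 6101.

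The rest of the pathway was described with a list of 24 further glycolysis genes, of which 23 were in the files and 10 were tested. For the mean of the 4 sgHS2 groups 2 of the 10 were called, both lower, where 1.48% of all genes were called lower, and the list's median difference was -0.13 against 0.03 over all genes tested. These were SLC2A3, which like the member SLC2A1 encodes a glucose transporter, and ALDOC, an isozyme of the member ALDOA. SLC2A3 encodes GLUT3, a transporter with high affinity for glucose, and lies on chromosome 12 from 8071826 to 8171603 of GRCh37, minus strand. It was at 153 and 158 TPM in sgGal4, 49.2 and 62.9 in dCas9-KRAB, 52.2 and 38.9 in dCas9-LSD1, 53.3 and 47.5 in enCRISPRi-LK, and 80.5 and 65.2 in enCRISPRi-KL. All 8 sgHS2 libraries lay below both controls, as for 5.29% of tested genes. The differences were -1.47 ± 0.208 (adjusted p = 0.00384), -1.76 (adjusted p = 0.00115), -1.61 (adjusted p = 0.0018) and -1.09 (adjusted p = 0.0168) on the log2 scale in that order, and -1.48 ± 0.165 (adjusted p = 0.000339) for the mean. The enCRISPRi-KL call was lost without sgGal4 replicate 1 or 2 (adjusted p = 0.0753 and 0.0638) and without enCRISPRi-KL replicate 1 or 2 (0.0511 and 0.192), while the calls in the other groups and in the mean held in every fit with 1 library left out. Without a mean-variance trend the calls in dCas9-KRAB (0.0664), enCRISPRi-LK (0.0577) and enCRISPRi-KL (0.101) were lost, and without a filter that in enCRISPRi-KL (0.0628). In the canonical transcript of SLC2A3, 12% of stretches of 75 bases occurred elsewhere in GRCh37.

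ALDOC, the aldolase known from brain, was at 22.4 and 29.2 TPM in sgGal4, 6.61 and 3.11 in dCas9-KRAB, 9.02 and 10.00 in dCas9-LSD1, 6.33 and 6.16 in enCRISPRi-LK, and 13.5 and 9.03 in enCRISPRi-KL. It was called lower in dCas9-KRAB (-2.25 ± 0.361, adjusted p = 0.00771), in enCRISPRi-LK (-1.88 ± 0.361, adjusted p = 0.0170) and in the mean (-1.65 ± 0.285, adjusted p = 0.00588). The dCas9-LSD1 libraries gave -1.34 (adjusted p = 0.109) and enCRISPRi-KL gave -1.14 (adjusted p = 0.144), neither of which passed. No sgHS2 library reached the controls, as for 5.29% of tested genes. Without sgGal4 replicate 1 or 2 the call on the mean was lost (adjusted p = 0.0528 and 0.0752), which left SLC2A3 as the only call of the list. The call in dCas9-KRAB was lost without dCas9-KRAB replicate 2 (0.0900), and that in enCRISPRi-LK without either sgGal4 library (0.0610 and 0.0875) or either enCRISPRi-LK library (0.120 and 0.164). Both were also lost without a filter (0.0608 and 0.0761) and without a trend (0.0546 and 0.0804).

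The shares within these pairs moved with the groups. SLC2A3 made up 68.7% and 73.6% of the summed TPM of SLC2A1 and SLC2A3 in sgGal4 and between 38.4% and 59.4% in the sgHS2 libraries. ALDOC made up 1.69% and 1.97% of both aldolases in sgGal4 and between 0.245% and 1.32% in the others, so ALDOA remained by far the larger part. The shares of HK2 among hexokinases 1 and 2, of PFKL among the phosphofructokinases and of LDHA in the sum with LDHB overlapped between sgGal4 and sgHS2 libraries. ENO3 took 0.877% and 1.15% of the sum with ENO1 in sgGal4, and the lowest sgHS2 library met the higher of these while the highest reached 3.06%. LDHA made up 54.2% and 55.6% in sgGal4 and between 50.1% and 58.6% in the rest.

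The other abundant genes of the list were LDHB, at 498 to 662 TPM, and PKM, the pyruvate kinase of dividing cells, at 194 to 302 TPM, neither of which was called. PGK1, HK3, PGK2, PGAM2, PGAM4, ENO2, PKLR and LDHC were listed at 0 in all libraries. PGK1 encodes a phosphoglycerate kinase, which makes ATP in the payoff phase, and only 3.93% of stretches of 75 bases in its canonical transcript occurred elsewhere in GRCh37, so this 0, like that of TPI1, was taken as a listing and not as a level.

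Many glycolysis genes respond to HIF1, and 17 genes of the hypoxia response, called hypoxia-inducible here, were read beside them, of which 15 were tested. HIF1A, EPAS1 and ARNT, which encode subunits of HIF itself, are among the 15 and enter the counts below. For the mean of the 4 sgHS2 groups 13 of 15 differences were negative, with a median of -0.74 against 0.03 over all genes, and 3 were called, all lower, where 1.48% of all genes were called lower. DDIT4, an inhibitor of mTORC1 induced by stress, was at 146 and 195 TPM in sgGal4, 25.4 and 22.2 in dCas9-KRAB, 49.2 and 39.2 in dCas9-LSD1, 14.5 and 13.4 in enCRISPRi-LK, and 49.9 and 35.4 in enCRISPRi-KL. It fell in all 4 groups, with a difference of -2.55 ± 0.189 on the log2 scale in the mean (adjusted p = 6.56e-06). VEGFA, the angiogenic growth factor, was at 81.4 and 83.5 TPM in sgGal4 and between 24.6 and 54.7 TPM in the others, and was called lower in dCas9-KRAB (-1.19), dCas9-LSD1 (-1.37), enCRISPRi-LK (-1.69) and the mean (-1.23 ± 0.158, adjusted p = 0.000815), while enCRISPRi-KL gave -0.69 (adjusted p = 0.114). BNIP3L, a mitophagy receptor, was at 39.7 and 41.8 TPM in sgGal4 and between 13.2 and 22.0 TPM in the others (-1.12 ± 0.218, adjusted p = 0.0126). That call was lost without sgGal4 replicate 1 (adjusted p = 0.111) or 2 (0.0853), and VEGFA lost its call in dCas9-KRAB without sgGal4 replicate 1 (0.0554) or dCas9-KRAB replicate 2 (0.0900) and in dCas9-LSD1 without dCas9-LSD1 replicate 2 (0.0743). Without a trend, BNIP3L in the mean (0.0550) and VEGFA in dCas9-KRAB (0.0721) were lost as well.

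HIF1A itself was at 34.3 TPM in both sgGal4 libraries and between 13.2 and 25.7 TPM in the sgHS2 libraries. It was called lower in enCRISPRi-KL (-1.14 ± 0.253, adjusted p = 0.0409) but not in the mean (-0.74, adjusted p = 0.0609). BNIP3 (-1.34, adjusted p = 0.0437) and BNIP3L (-1.24, adjusted p = 0.0417) were called in enCRISPRi-KL as well, and MXI1, an antagonist of MYC, in enCRISPRi-LK (-1.79, adjusted p = 0.0170). With 1 library left out, the calls of BNIP3 and BNIP3L in enCRISPRi-KL were lost whichever library it was (adjusted p from 0.0528 to 0.235 and from 0.0518 to 0.241). That of HIF1A held only without either dCas9-KRAB library and otherwise gave 0.0552 to 0.276. That of MXI1 was lost without sgGal4 replicate 1 or 2 (0.0573 and 0.0819) and enCRISPRi-LK replicate 1 or 2 (0.0999 and 0.171). Without a filter or without a trend none of these 4 calls held (adjusted p from 0.0663 to 0.0898), with only the compared groups fitted HIF1A (0.134), BNIP3 (0.142) and BNIP3L (0.117) were lost, and with a replicate block HIF1A (0.0506) and BNIP3 (0.0650). In the mean, HIF1A was called in 5 of 10 alternative settings that kept all libraries (adjusted p from 0.0219 to 0.0445 in those 5), and VEGFA in enCRISPRi-KL with mitochondrial genes removed (0.0418). EPAS1, which encodes HIF2α, was called by the F test over the 5 groups alone (adjusted p = 0.0391), at 6.84 and 11.0 TPM in sgGal4 and between 1.23 and 14.9 TPM in the rest. ERO1L, an endoplasmic reticulum oxidase, lay between 17.1 and 36.0 TPM without a call. In 7 of the 15 genes (HIF1A, BNIP3, BNIP3L, VEGFA, KDM3A, DDIT4 and MXI1) both sgGal4 libraries lay above all 8 sgHS2 libraries, against 5.29% of all tested genes. The list was chosen with earlier results of these data known, so this contrast is a description and not a test.

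**Figure D4:**
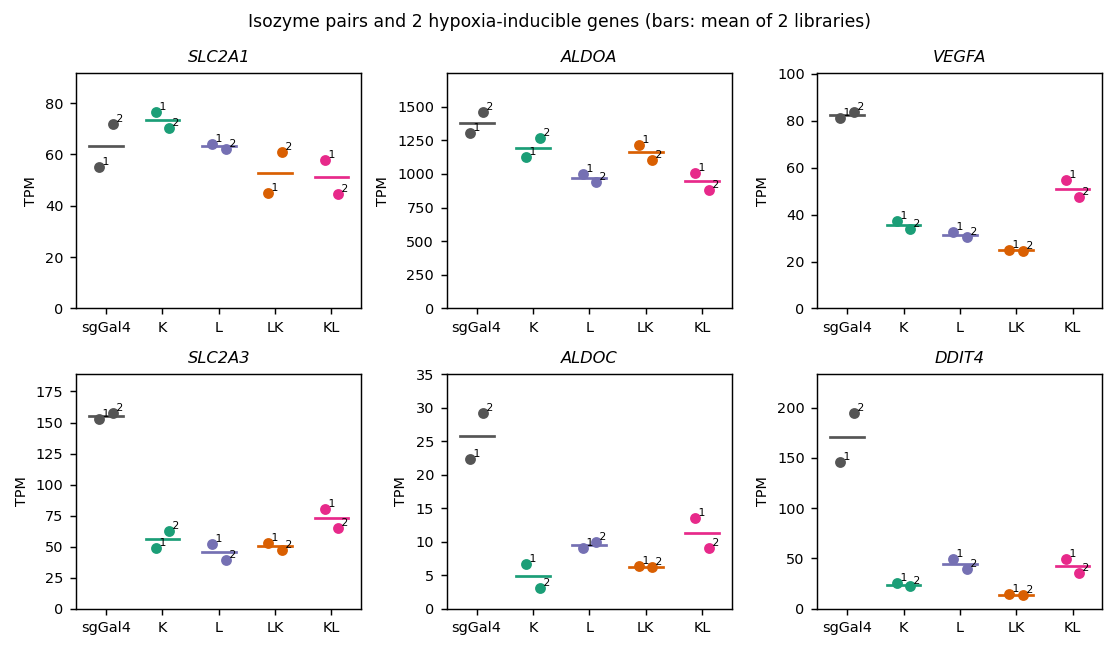
TPM (vertical axes, from 0) of the transporter pair SLC2A1 and SLC2A3, the aldolase pair ALDOA and ALDOC, and the hypoxia-inducible genes VEGFA and DDIT4 in each library of the 5 groups, with points numbered by replicate and bars at the mean of 2 libraries. In 5 of the 6 panels, all but SLC2A1, both sgGal4 libraries stand above the other 8. That order held for 5.29% of all tested genes. It held for 1 of 9 members, 2 of 10 further glycolysis genes and 7 of 15 hypoxia-inducible genes, so the panels do not represent their lists.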

How the data were processed

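RNA-seq of 10 K562 libraries, 2 in each of 5 groups, was used. Per the labels and the methods, the authors aligned reads to hg19 with STAR (version 2.5.2b), discarded reads that mapped to several locations, and deposited RSEM values in TPM, 1 per gene symbol and library. The annotation is not given in the sources used here. Library preparation is given as Ovation in the methods, while the labels give a directional kit after poly(A) isolation. TPM keeps no read totals, so depth is unknown and count tests such as the DESeq2 step named by the study were not repeated.

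From the deposited TPM values, log2(TPM + 1) of 10127 genes that averaged 1 TPM or more was fitted over all libraries with R (version 4.3.3) and its packages limma (version 3.58.1) and jsonlite (version 2.0.0). The fit left 5 residual degrees of freedom, variances were moderated along a trend, and p-values were adjusted by Benjamini-Hochberg. An adjusted p under 0.05 was called. Fold changes on this scale understate those of low genes. The step was tested on simulated data. The members and gene lists were chosen with earlier results of these data known. All members are named, and a list gene is named if it was called in a comparison, had one of the 3 highest mean TPM of its list, or was at 0 in all libraries. Other genes named are marked as chosen after seeing values or belong to a count.

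Gene positions are from GENCODE release 44 lifted to GRCh37, whose transcripts were searched in stretches of 50, 75 and 100 bases for exact copies elsewhere in the genome. Python (version 3.11.15) with numpy (version 2.4.6), pandas (version 2.3.3), numba (version 0.67.0) and matplotlib (version 3.10.9) was used for sequences and plots. Promoters are from a RefSeq table on GRCh38.p14. SLC2A3 has no printed promoter. A gene of the reference list is not reported here and was left out of that list's counts. Alternatives were a pseudocount of 0.1, no filter, a filter at 10 TPM, median-of-ratios size factors, quantile normalization, removal of mitochondrial genes, division by GAPDH, no trend, a fit of the compared groups alone, a replicate block and leaving out each library. The same alternatives for the gene lists and their genes were chosen after seeing the data.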

Additional observations from a re-analysis of the deposited data

Results flagged for a closer look

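In the main fit the levels of 2 hypoxia-inducible genes differed between the libraries labelled enCRISPRi-LK and enCRISPRi-KL, by a direct test. Neither call held in all alternatives. DDIT4 was at 14.5 and 13.4 TPM in enCRISPRi-LK and 49.9 and 35.4 TPM in enCRISPRi-KL, a difference of -1.53 ± 0.239 on the log2 scale (limma, adjusted p = 0.0147). The call was lost without either enCRISPRi-LK library (adjusted p = 0.108 and 0.118) or either enCRISPRi-KL library (0.147 and 0.0522), and in 7 of 20 alternatives altogether, while the direction held in all 20. VEGFA was at 25.1 and 24.6 TPM in enCRISPRi-LK and 54.7 and 47.3 TPM in enCRISPRi-KL, a difference of -1.003 ± 0.200 (adjusted p = 0.0485), and 15 of 20 alternatives, all 10 that left out a library among them, lost the call (adjusted p between 0.0263 and 0.368 over all of them). In this comparison 0.385% of tested genes were called.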

How the results depend on the processing

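With 2 libraries a group and no read totals, the fits rest on moderated variances, and a group from which 1 library was left out is assumed to vary like the others. Counts of called members are given here. The F test called 1 (ALDOA) instead of 0 after quantile normalization and after removal of mitochondrial genes. dCas9-LSD1 called 1 (ALDOA) with a filter at 10 TPM, quantile normalization and removal of mitochondrial genes, and enCRISPRi-LK called 1 (ALDOA) with quantile normalization. The enCRISPRi-KL count fell from 1 to 0 without a filter, with TPM divided by GAPDH, without a trend and with only those groups fitted. The count for the mean of the 4 sgHS2 groups fell from 1 to 0 without a filter, with size factors, with TPM divided by GAPDH and without a trend. With 1 library left out the counts ranged from 0 to 1 for dCas9-KRAB, enCRISPRi-LK, enCRISPRi-KL and the mean, and the cause of these changes was not tested. Over all alternatives the adjusted p of ALDOA ranged from 0.00328 to 0.304 in enCRISPRi-KL and from 0.00264 to 0.321 in the mean, and its direction did not change.

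The replicate numbers did not pair the libraries: over 10 pairs of groups the correlations of same-numbered deviations lay between -0.0213 and 0.0229. With the replicate number as a block both counts with an ALDOA call fell to 0 (adjusted p = 0.0506 for enCRISPRi-KL and 0.0612 for the mean).

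GAPDH reversed in the mean of the 4 sgHS2 groups, from 0.14 to -0.0904 with quantile normalization (adjusted p = 0.535). With 1 library left out it ranged from -0.0902, without sgGal4 replicate 1, to 0.367, without sgGal4 replicate 2. Its SD was 0.135 with size factors and 0.128 without mitochondrial genes. Division by GAPDH moved the median difference of all genes to -0.20 for dCas9-KRAB, against 0.06 as deposited, and to -0.21 for enCRISPRi-LK, against 0.03, and cut the genes called higher from 89 of 164 to 28 of 316 and from 119 of 203 to 26 of 218. Removal of mitochondrial genes moved these medians to -0.06 and -0.09, with 71 of 209 and 91 of 244 called higher. In both settings ALDOA lay below the median of all genes in these groups. Among the hypoxia-inducible genes 5 instead of 3 were called in the mean with a filter at 10 TPM, size factors, quantile normalization, removal of mitochondrial genes and division by GAPDH.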

Other observations

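Regulators and exits of glycolysis gave no call against sgGal4 in the main fit. Of 20 genes for the control of phosphofructokinase, the lactate carriers and the entry of pyruvate into mitochondria, 12 were tested and 0 were called in these comparisons. For the mean of the 4 sgHS2 groups limma counted 3 of the 12 at an unadjusted p under 0.05, against 17.1% of all tested genes. BSG, the chaperone of the lactate carriers, was at 122 and 202 TPM in sgGal4 and between 191 and 272 TPM in the others (0.57 ± 0.164 on the log2 scale, adjusted p = 0.0802). It was 0.208 without sgGal4 replicate 1 (adjusted p = 0.602) and 0.930 without sgGal4 replicate 2 (adjusted p = 0.00739). With a filter at 10 TPM (0.0445) and with size factors (0.0499) it was called, and in the other 8 settings that kept all libraries it was not. PDHA1, a subunit of pyruvate dehydrogenase, lay between 118 and 181 TPM. DLD, the dihydrolipoamide dehydrogenase of the same complex, was at 78.5 and 85.1 TPM in sgGal4 and between 52.6 and 77.8 TPM in the others, and MPC2 of the pyruvate carrier, named after its values were seen, was at 31.3 and 34.0 TPM against 15.5 to 31.1 TPM. Both sgGal4 libraries lay above all others for these 2 genes, as for 5.29% of tested genes. DLAT was listed at 0 in all libraries.

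The side branches gave no call either. In gluconeogenesis 3 of 7 genes were tested, with 1 at an unadjusted p under 0.05 by limma for the mean (17.1% of all tested genes). PCK2, the mitochondrial PEP carboxykinase, lay between 9.34 and 34.9 TPM, G6PC3 between 18.6 and 35.8 TPM and PC, pyruvate carboxylase, between 4.12 and 12.5 TPM, and FBP1, FBP2 and G6PC were listed at 0. In the pentose phosphate pathway 6 of 7 genes were tested, with 1 at an unadjusted p under 0.05 by limma for the mean (again 17.1% of all tested genes). TALDO1, the transaldolase, lay between 209 and 344 TPM, PGD between 174 and 272 TPM and PGLS, the lactonase, between 11.97 and 24.9 TPM. TKT, the transketolase of the same branch, was listed at 0 in all libraries.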
